A study of Artemia parthenogenetic lineage with 6 samples.

Results

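Runs of neighbouring gene models whose transcript level changed in the same direction between diapause and 5 h after its end were examined in brine shrimp (Artemia parthenogenetica) cysts. The models carry identifiers of the form evm.TU.ctg4711.1, in which the first number names a contig (an assembled piece of the genome) and the second numbers the models along it. A model was kept when its mean CPM (its read count scaled to a library total of 1000000) was at least 4 in the higher group, the group means differed at least 2-fold, no library of one group reached into the range of the other, and the model numbered one higher or lower on the contig met the same limits in the same direction. Of 12194 models with such a plain identifier, 1702 (14%) met the limits on their own, and 244 of these had such a neighbour. They formed 119 runs on 115 of 2078 contigs: 195 models in 95 rising runs, higher at 5 h, and 49 models in 24 falling runs, higher at 0 h. On their own, 9.82% of the plain evm models met the limits as rising and 4.13% as falling. The members were chosen on the values of these libraries, so their levels and ratios are a description and carry no test.

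RNA was sequenced from whole cysts of one batch collected at Ebinur Lake. All cysts were wild type. The ArD_0h group (n = 3 libraries) was taken at the diapause stage and is labelled as untreated. The ArR_5h group (n = 3 libraries) held cysts of the same batch 5 h after embryonic diapause termination (EDT), which had been rehydrated in ice-cold artificial seawater of 30‰ salinity and incubated at 28 °C in continuous light. The labels are not of one mind on the diapause cysts: a protocol shared by both groups names rehydration for the diapause stage as well. The study also describes drying and cold storage to break diapause and leaves unstated whether diapause cysts were handled so. Thus their effects and those of time cannot be told apart. In whole cysts, more cells of a type and more RNA per cell cannot be told apart either. The identifiers carry no gene names, so the cysts could not be checked against markers.

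An Artemia cyst is an embryo inside a shell, and in diapause its development and metabolism are arrested until drying, cold and then water and light release it. Identifiers beginning with evm.TU are the form written by EVidenceModeler, a program that merges gene predictions with transcript and protein evidence, and neighbours by number are taken here as neighbours on the contig. In animal genomes, genes that lie side by side can share regulatory DNA or a stretch of open chromatin, can be tandem copies of one ancestral gene, and can also be fragments into which an annotation has split one gene. Coordinates, strands and sequences of the models were not used here, so which of these applies to a run was not tested. The kit does not mark strand, and the reads of overlapping or antisense models cannot be told apart.

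Most runs were pairs. Among the rising runs, 91 held 2 models, 3 held 3 and 1 held 4, and among the falling runs 23 held 2 and 1 held 3. Rising members had a median level of 21.1 CPM at 5 h (range 4.31 to 405) and a median ratio of 2.98, with 96 of 195 at 3-fold or more, 40 at 4-fold or more and 12 at 6-fold or more. Falling members had a median level of 22.6 CPM at 0 h (range 4.36 to 1009) and a median ratio of 2.53, with 11 of 49 at 3-fold or more and 5 at 4-fold or more. No member was without reads in any library, the lowest count being 5, and 5 rising members had a mean under 1 CPM at 0 h. Most runs were thus moderate changes of transcripts present in both stages.

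**Figure D1:**
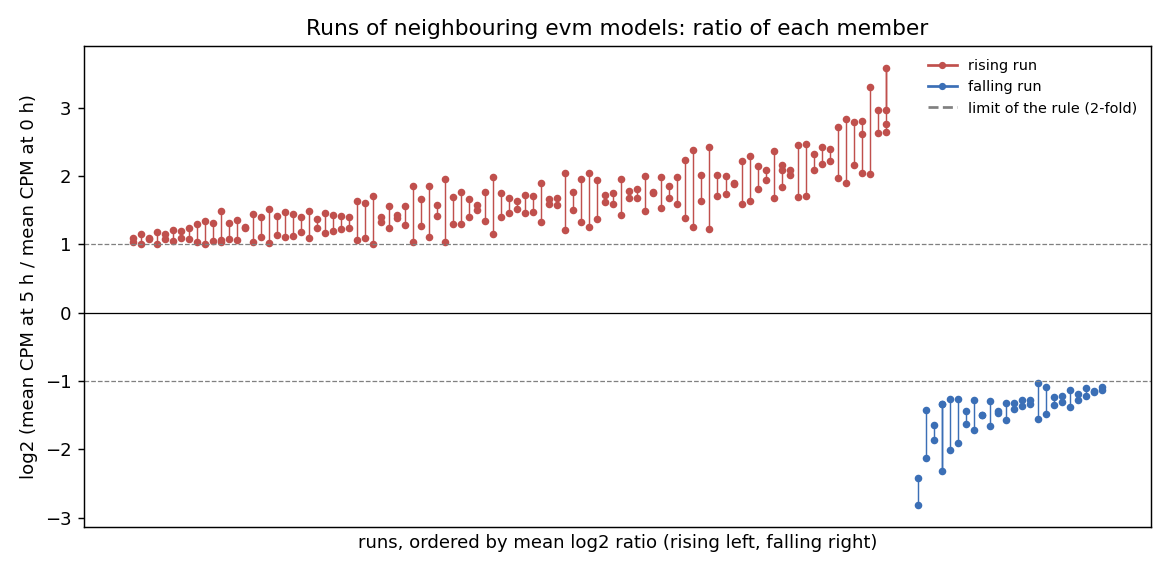
Log2 of the mean CPM at 5 h over the mean CPM at 0 h for the 244 members; each vertical line is 1 of 119 runs, points are its models, and dashed lines mark the 2-fold limit of the rule. Rising runs reach 12.01-fold and falling runs 7.05-fold.

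In the fit of edgeR's quasi-likelihood test across all models, 2984 of 11959 models tested were called (25%), and 22.9% of the plain evm models (14.7% higher at 5 h, 8.18% lower). Of the members, 236 of 244 were called: 187 of 195 rising and 49 of 49 falling members. The 8 that were not called had log2 ratios of 1.01 to 1.04. The rule used the same contrast, so nothing is read from this count. Non-overlapping groups were common: among plain evm models at 4 CPM or more, 71.4% had them (39.6% with 5 h above, 31.7% with 0 h above). The libraries held 9992823 to 13505892 counts, 3 counts corresponding to 0.222 to 0.3002 CPM. The ArR_5h libraries differed more from each other than the ArD_0h libraries, with a chi-square per degree of freedom of 5.04 to 28.3 between pairs against 2.47 to 3.07, highest between replicates 2 and 3 of ArR_5h. The number of falling members depended on these libraries: it was 80 without replicate 2 of ArR_5h and 38 without replicate 3, against 49 with all. The number of rising members was 167 and 238 in the same order, against 195.

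Partners of rising models were more often rising than all models in the same pairs, a set that includes models under 4 CPM. Of the rising models in pairs with consecutive numbers (6197 pairs), 17.8% had a rising partner, where 9.09% of all models in these pairs were rising. For falling models the shares were 10.1% and 3.98%. The first share of each pair restates the rule. The shares of all models count models under 4 CPM, which cannot pass: 7865 of 12194 plain evm models reached that level. Shares among the models at that level alone were not computed, so how much of the excess they would keep is not known, at any distance. Pairs further apart were not asked for by the rule, though they hold many of the same models. With numbers 2 apart, 13.7% of rising models had a rising partner against 9.21% of all, and 7.29% of falling models had a falling partner against 3.67%. From 3 to 9 apart the rising share stayed between 11% and 14.6%, against 9.10% to 9.79% of all. At 10 apart it was 8.92% against 9.19%. The falling share was 3.65% at 4 apart, from 6 pairs, against 3.798% of all. At 10 apart it was 9.09%, from 11 pairs, against 4.51% of all. At the other distances from 3 to 9 apart it was 4.56% to 8%, against 3.96% to 4.34% of all. Partners of the opposite direction were also found: 50 consecutive pairs joined a rising and a falling model, against 100 pairs with both rising and 25 with both falling. In these pairs 4.44% of rising models had a falling partner, near the 3.98% of all models that were falling. A rising partner was held by 10.1% of falling models, against 9.09% of all, the same share as held a falling partner. None of these shares was tested.

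**Figure D2:**
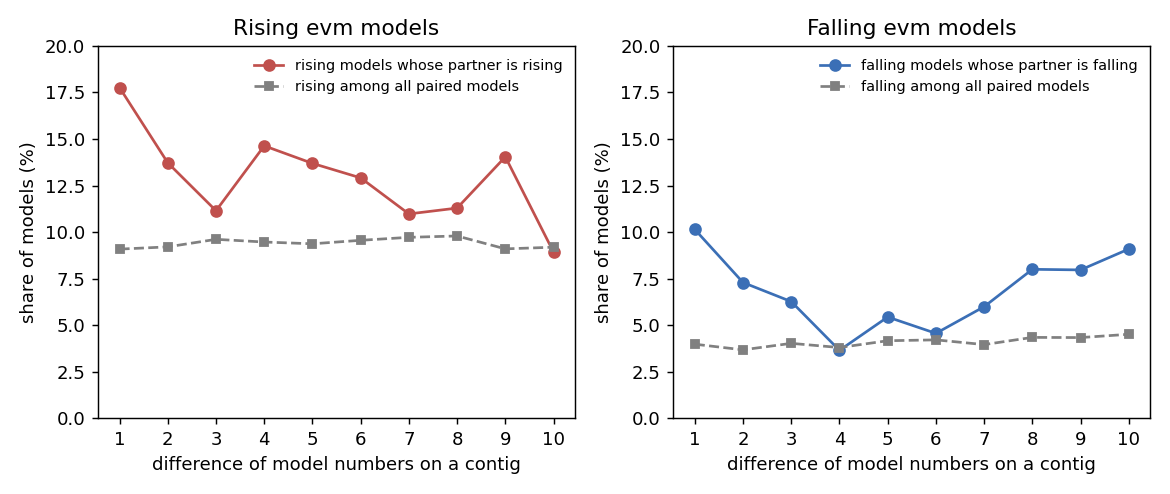
Share of rising (left) and falling (right) evm models whose partner on the contig changed in the same direction, by the difference of their model numbers. Squares give the share of such models among all models in the same pairs, including models under 4 CPM, which cannot pass. At a difference of 1 the shares are 17.8% against 9.09% (rising) and 10.1% against 3.98% (falling).

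Most positions beside the runs held no model that could have extended them. Of the 190 positions flanking rising runs, 106 had no plain evm model in the table, 28 held a model under 4 CPM, 28 one with its means in the same order that missed a limit, 22 one with its means in the opposite order and 6 a falling model. Of the 48 positions flanking falling runs the numbers were 28, 4, 11, 4 and 1, the last a rising model. The 56 flanking models of rising runs at 4 CPM or more had a median log2 ratio of 0.01, and the 16 of falling runs one of -0.20, where all plain evm models at that level had 0.07. A flank that passed in the direction of its run would be a member, so flanks lack such models by construction. The value of all models includes them, and nothing is read from the difference. Of all 1702 passing models, 411 had no plain evm neighbour in the table and 838 had 1.

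The longest run took up a whole contig. All 4 plain evm models of contig 4711 were higher at 5 h, and it held the member with the largest ratio of all. evm.TU.ctg4711.1 had 4.73, 2.27 and 4.44 CPM in replicates 1, 2 and 3 of ArD_0h and 23.8, 23.0 and 25.1 CPM in those of ArR_5h, a 6.29-fold difference. evm.TU.ctg4711.2 had 1.61, 1.97 and 2.52 CPM at 0 h and 13.8, 13.8 and 13.6 CPM at 5 h, or 6.76-fold more. The ArR_5h libraries, which differed widely elsewhere, lay close together for this model. evm.TU.ctg4711.3 had 0.567, 0.493 and 0.889 CPM at 0 h, from 6, 5 and 12 reads, and 8.06, 7.61 and 7.73 CPM at 5 h, or 12.01-fold more. evm.TU.ctg4711.4 had 2.27, 2.17 and 2.52 CPM at 0 h and 19.7, 17.7 and 17 CPM at 5 h, or 7.82-fold more. The first and last models of the run had the same length, 885 bases, and the inner models had 315 and 420 bases. Whether they are copies that share reads was not tested, so the split of reads between them is uncertain. No function is annotated for them in the sources used here.

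The rising runs of 3 models lay on contigs 92, 984 and 1054, and the one on contig 984 began with an annotated gene. evm.TU.ctg984.2, to which the study assigns chromatin binding, the property of proteins that attach to DNA packed on histones, had 3.40, 2.17 and 3.92 CPM at 0 h and 12.9, 14.7 and 11.8 CPM at 5 h (4.14-fold). evm.TU.ctg984.3 had 0.851, 0.888 and 0.814 CPM at 0 h and 5.23, 6.90 and 3.50 CPM at 5 h (6.12-fold). evm.TU.ctg984.4 had 1.04, 0.493 and 0.740 CPM at 0 h and 5.05, 7.21 and 3.66 CPM at 5 h (7.0-fold). In all 3 models replicate 2 was the highest and replicate 3 the lowest ArR_5h library, as in 122 and 135 of 195 rising members. On both sides the ratio was under the limit: the mean of evm.TU.ctg984.1 was 0.964 CPM in ArD_0h and 1.52 CPM in ArR_5h, and evm.TU.ctg984.5 had 66.0 and 98.6 CPM.

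The run on contig 1054 had a neighbour that missed the level limit. evm.TU.ctg1054.3 had 14.9, 14.7 and 12.1 CPM at 0 h and 52.9, 45.5 and 51.3 CPM at 5 h (3.58-fold), and evm.TU.ctg1054.4 and evm.TU.ctg1054.5 had ratios of 4.25 and 4.47 at 11.3 and 7.86 CPM. evm.TU.ctg1054.2, which went from 1.02 to 3.64 CPM, had a log2 ratio of 1.83 but stayed under 4 CPM. A further model of the contig, evm.TU.ctg1054.9, passed alone, with means of 6.17 and 14.3 CPM. The third run of 3, on contig 92, changed less: evm.TU.ctg92.9, evm.TU.ctg92.10 and evm.TU.ctg92.11 had ratios of 2.09, 2.05 and 2.81. Their libraries did not follow one pattern, since replicate 3 was the highest ArR_5h library for evm.TU.ctg92.9 (91.6 CPM) and the lowest for evm.TU.ctg92.11 (5.13 CPM).

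**Figure D3:**
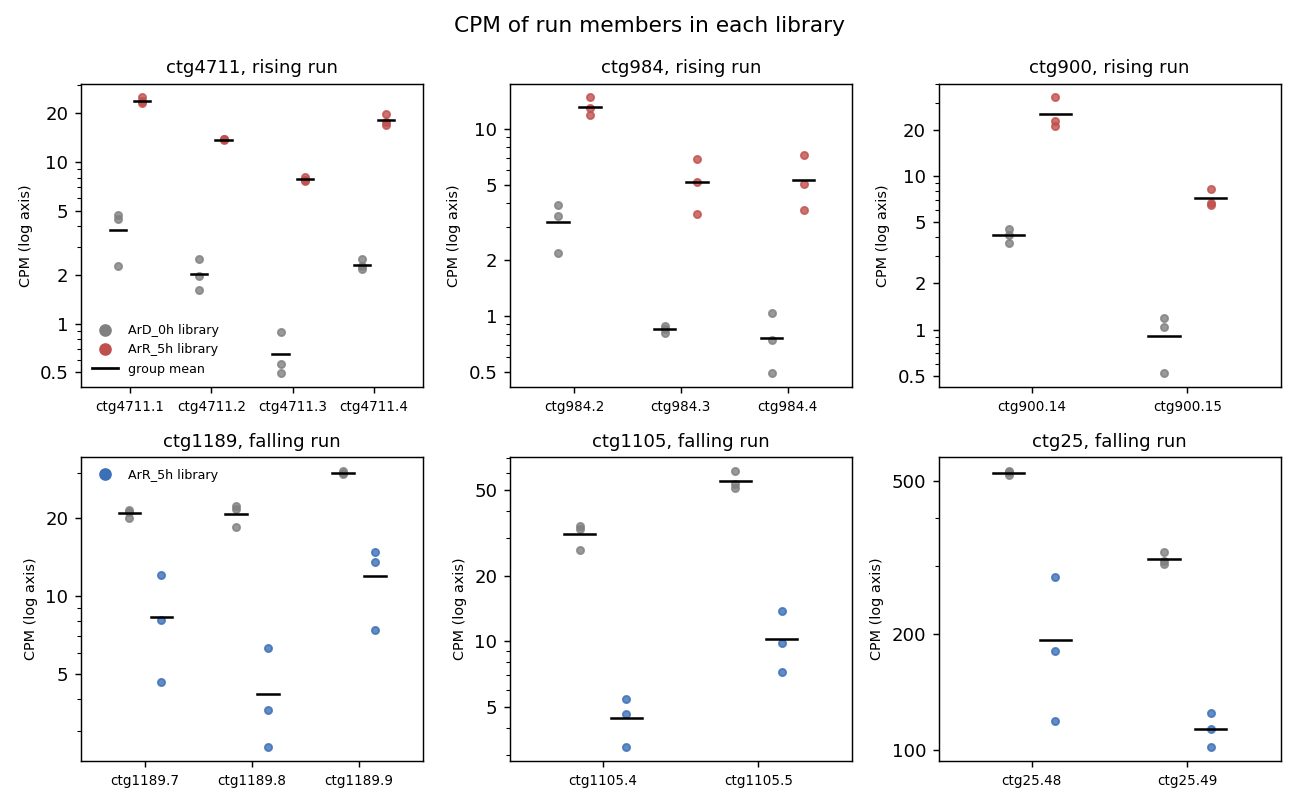
CPM (log axis) of run members on 6 contigs, 1 point per library and a bar at each group mean (n = 3 libraries), grey for ArD_0h and coloured for ArR_5h. The groups do not overlap, which the rule required; evm.TU.ctg4711.3 rises from 0.65 to 7.80 CPM and evm.TU.ctg1105.4 falls from 31.2 to 4.42 CPM.

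Further large rises included a regulator of cell death and a metabolic enzyme. evm.TU.ctg900.14, annotated by the study with negative regulation of apoptosis (the programmed death of cells), had 4.54, 3.65 and 4.15 CPM at 0 h and 22.9, 32.6 and 21.2 CPM at 5 h (6.22-fold). Its neighbour evm.TU.ctg900.15 had 1.04, 1.18 and 0.518 CPM at 0 h and 6.73, 8.31 and 6.51 CPM at 5 h (7.86-fold). Replicate 2 was the highest ArR_5h library for both, as for 122 of 195 rising members. evm.TU.ctg284.40, annotated as an oxidoreductase that acts on aldehyde or oxo groups, had 6.81, 8.68 and 6.0 CPM at 0 h and 52.2, 54.7 and 41.7 CPM at 5 h (6.92-fold). Its neighbour evm.TU.ctg284.41 had means of 14.8 and 66.5 CPM (4.48-fold). The pair evm.TU.ctg428.11 and evm.TU.ctg428.12, without annotation in the sources used here, had ratios of 5.25 and 4.67 at 9.60 and 25.7 CPM at 5 h.

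Protein kinases, enzymes that pass on signals by attaching phosphate to proteins, were annotated in 3 members, and no other listed function in more than 2. The sheet of Gene Ontology terms that the study provides covers 567 models, and 441 plain evm models of the table have a term there. The study selected the models of this sheet in part from these same libraries, and it is held here only in part, so no enrichment can be read from it. Rising models were common in it: of the 441 annotated models, 179 met the limits as rising and 5 as falling, and 24 were members, so the counts of a function are to be set beside these and not beside the shares of all evm models. Of 26 annotated kinase models, 19 met the limits as rising, 0 as falling, and 3 were members, beside 24 members among the 179 rising annotated models. Nothing is read from so small a count. evm.TU.ctg661.3 had 34.0, 35.0 and 29.2 CPM at 0 h and 121, 143 and 101.4 CPM at 5 h (3.72-fold), beside evm.TU.ctg661.4 (2.51-fold). evm.TU.ctg906.1 had 6.81, 7.30 and 6.37 CPM at 0 h and 23.6, 23.5 and 18.8 CPM at 5 h (3.22-fold), beside evm.TU.ctg906.2 (2.75-fold). For the third kinase, evm.TU.ctg918.4, the levels were 16.5, 17.7 and 17.2 CPM at 0 h and 37.5, 47.5 and 24.4 CPM at 5 h (2.13-fold).

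Signal transduction, calcium binding and transmembrane transport were each annotated in 1 or 2 members. evm.TU.ctg232.10, annotated with signal transduction and deaminase activity, went from 35.7 to 97.2 CPM (2.73-fold). evm.TU.ctg11.27, annotated as an activator of GTPases, the switch proteins of cell signalling, had 1.99, 1.78 and 3.63 CPM at 0 h and 14.0, 17.8 and 8.63 CPM at 5 h (5.47-fold). The calcium-binding model evm.TU.ctg715.13 had means of 22.2 and 59.0 CPM (2.65-fold), and was 1 of 12 rising among 14 annotated calcium-binding models. Transmembrane transporters carry solutes across membranes: of 22 annotated models 12 were rising, 1 falling, and 2 were members, evm.TU.ctg456.9 (24.5 to 49.2 CPM, not called) and evm.TU.ctg508.18 (53.8 to 127 CPM). The latter is also annotated with DNA binding, and its neighbour evm.TU.ctg508.19 (28.1 to 83.2 CPM) with protein binding.

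Among enzymes of sugar metabolism, evm.TU.ctg564.3, annotated as a xylosyltransferase that builds aminoglycans, a class of sugar chains, had means of 8.76 and 26.6 CPM (3.04-fold). evm.TU.ctg700.3, annotated with carbohydrate metabolism, had 145, 134 and 132 CPM at 0 h and 293, 261 and 286 CPM at 5 h (2.05-fold). Of the nucleic acid binders, evm.TU.ctg214.16 and evm.TU.ctg214.17 both carried the term nucleic acid binding, with 4.04-fold and 3.10-fold higher means at 5 h. The RNA-binding model evm.TU.ctg60.9 had means of 9.39 and 30.2 CPM (3.21-fold), and the DNA-binding hydrolase evm.TU.ctg97.56 had 3.91 and 10.5 CPM (2.70-fold). None of the 20 annotated peptidases, 35 zinc-binding, 12 GTP-binding or 12 cytoskeletal models was a member, and 8, 8, 3 and 5 of them were rising. Of all 179 rising annotated models 24 were members, so with so few rising models nothing is read from these absences. Among all 441 annotated models, 24 were members, in 22 runs, and 0 falling members were in the sheet, which covers only the interval from 0 h to 30 min. The study also annotates models of the interval from 30 min to 5 h, and those terms were not used here. The lack of annotated falling members is thus limited to the sheet that was read.

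The most abundant rising pairs differed by 2.05-fold to 2.96-fold between the stages. evm.TU.ctg608.3, the most abundant rising member, had 176, 182 and 173 CPM at 0 h and 405, 379 and 431 CPM at 5 h (2.28-fold), and evm.TU.ctg608.2 had 48.6, 51.8 and 49.2 CPM and then 103, 97.9 and 118 CPM (2.13-fold). The order of the ArR_5h libraries was the same in both, with replicate 3 the highest, which was the case for 29 of 195 rising members. evm.TU.ctg46.29, annotated as a plasma membrane protein, had means of 52.5 and 128 CPM (2.44-fold), and its neighbour evm.TU.ctg46.30 had 36.6 and 108 CPM (2.94-fold). Next to evm.TU.ctg700.3 named above, evm.TU.ctg700.2 had 34.8 and 85.5 CPM (2.45-fold).

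Of the falling runs, the one on contig 1105 had the largest ratios. evm.TU.ctg1105.4 had 34.2, 32.9 and 26.4 CPM at 0 h and 4.61, 5.40 and 3.26 CPM at 5 h, or 7.05-fold less. evm.TU.ctg1105.5 had 53.1, 60.98 and 51.2 CPM at 0 h and 9.83, 13.8 and 7.25 CPM at 5 h, or 5.35-fold less. In both, replicate 3 was the lowest ArR_5h library and replicate 2 the highest, as in 42 and 34 of 49 falling members. The next pairs by the ratio of their less changed model were evm.TU.ctg174.10 and evm.TU.ctg174.11 (3.64-fold and 3.11-fold, from 7.53 and 6.96 CPM), and evm.TU.ctg1733.4 and evm.TU.ctg1733.5 (both 2.81-fold, from 14.1 and 9.45 CPM), the only plain evm models of their contig.

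Contig 1189 held the only falling run of 3 and a second falling pair. evm.TU.ctg1189.7 had 21.6, 21.1 and 19.99 CPM at 0 h and 8.06, 12.1 and 4.64 CPM at 5 h (2.53-fold less). evm.TU.ctg1189.8 had 21.7, 22.3 and 18.5 CPM at 0 h and 3.63, 6.30 and 2.61 CPM at 5 h (4.98-fold less). evm.TU.ctg1189.9 had 29.8, 30.4 and 29.7 CPM at 0 h and 13.6, 14.8 and 7.41 CPM at 5 h (2.51-fold less). The ArD_0h libraries of the run were close together, and the ArR_5h libraries spread in the same order in all 3 models. Such an order was common: replicate 3 was lowest in 42 of 49 falling members and in 349 of 455 falling models without a falling neighbour. On the same contig evm.TU.ctg1189.16 and evm.TU.ctg1189.17 were 2.70-fold and 4.38-fold lower at 5 h, and evm.TU.ctg1189.1 and evm.TU.ctg1189.19 passed alone as falling. The contig was not uniform: evm.TU.ctg1189.5 had means of 54.9 and 57.0 CPM and evm.TU.ctg1189.18 had 25.52 and 23.8 CPM.

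The most abundant falling pair in both of its members held a model that the study lists as a receptor candidate. evm.TU.ctg25.48, a candidate G protein-coupled receptor (a class of membrane proteins that sense signals outside the cell) for which the study's prediction tools found no transmembrane helix, had 530, 526 and 518 CPM at 0 h and 181, 281 and 119 CPM at 5 h. Its mean was 525 ± 6.04 CPM at 0 h and 194 ± 81.8 CPM at 5 h (SD, n = 3), or 2.71-fold less. evm.TU.ctg25.49 had 310.5, 303 and 327 CPM at 0 h and 114, 125 and 102 CPM at 5 h (2.76-fold less). The order of the ArR_5h libraries was the same in both models, with replicate 3 lowest as in 42 of 49 falling members. Their spread was far wider in evm.TU.ctg25.48. The single most abundant falling member, evm.TU.ctg29.14, had 1030.3, 1031 and 966 CPM at 0 h and 439, 466 and 350.5 CPM at 5 h (2.41-fold less), beside evm.TU.ctg29.13, which went from 26.7 to 10.6 CPM (2.51-fold less).

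The next falling pairs by level differed in how alike their members were. Per length, evm.TU.ctg78.1 and evm.TU.ctg78.2 had 51.2 and 55.8 FPKM at 0 h (read count divided by model length and library size), were 2548 and 2559 bases long and were 2.12-fold and 2.19-fold lower at 5 h. In read counts evm.TU.ctg77.46 and evm.TU.ctg77.47 were close, going from 45.3 to 21.02 CPM and from 44.1 to 18.9 CPM, but per length they had 23.0 and 77.5 FPKM at 0 h. evm.TU.ctg374.7 and evm.TU.ctg374.8 went from 56.4 to 20.1 CPM and from 161 to 75.4 CPM, and per length had 190.3 and 166 FPKM at 0 h. The other falling pairs ranged from 4.36 to 220 CPM at 0 h.

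Contig 1201 carried runs of both directions, the one contig to do so. evm.TU.ctg1201.1 had 227, 214 and 201.2 CPM at 0 h and 77.3, 94.9 and 44.7 CPM at 5 h (2.96-fold less), and evm.TU.ctg1201.2 had means of 22.0 and 8.79 CPM (2.51-fold less). On the same contig evm.TU.ctg1201.4 had 1.89, 2.37 and 1.04 CPM at 0 h and 8.77, 10.3 and 7.41 CPM at 5 h (5.00-fold more), and evm.TU.ctg1201.5 had means of 1.16 and 4.91 CPM (4.24-fold more). These 4 are the plain evm models of the contig in the table. Contigs 113, 770 and 1189 also held 2 runs, each in 1 direction. On contig 113 the rising pairs were separated by 1 number: evm.TU.ctg113.33 and evm.TU.ctg113.34 (4.65-fold and 3.01-fold) and evm.TU.ctg113.36 and evm.TU.ctg113.37 (2.25-fold and 2.75-fold).

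Neighbours were alike in size of change to varying degrees. The median difference of log2 ratios was 0.29 between adjacent rising members (100 pairs) and 0.43 between rising members on different contigs (18801 pairs), and it was 0.23 for falling members both adjacent (25 pairs) and on different contigs (1144 pairs). The members of 1 pair differed least in evm.TU.ctg1733.4 and evm.TU.ctg1733.5, and next in evm.TU.ctg35.16 and evm.TU.ctg35.17 (2.12-fold and 2.13-fold). They differed most in evm.TU.ctg26.25 and evm.TU.ctg26.26 (4.07-fold and 9.83-fold) and in evm.TU.ctg227.15 and evm.TU.ctg227.16 (5.36-fold and 2.34-fold). Levels per length were also nearer in neighbours: the median difference in log2 FPKM was 0.69 between adjacent rising members against 1.25 on different contigs, and 0.65 against 1.64 for falling members. Adjacent evm models at large differed by 1.61 (3168 pairs at 4 CPM or more). Single pairs went far from this, evm.TU.ctg155.17 having 27.3 times the FPKM of evm.TU.ctg155.18. Pairs share libraries and models, and these differences were not tested.

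Members were shorter than other passing models. The median length was 1290 bases for rising members against 1732 for the 1003 rising models without a rising neighbour, and 1158 bases for falling members against 1452 for the 455 falling models without a falling one. All plain evm models at 4 CPM or more had a median of 1371 bases. How the level of members compared with that of the other passing models depended on the unit. Per length, the median of members in the higher group was 17.1 FPKM against 14.0 for rising models and 26.4 against 19.5 for falling models, and all plain evm models at 4 CPM or more had 26.6 FPKM. In CPM the order was the reverse, 21.1 against 22.0 for rising and 22.6 against 30.8 for falling models. These are descriptions over models, without a test.

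The rule did not use how libraries of 1 group deviate from their mean, other than through the separation of the groups. For each pair the deviations of log2(CPM + 1) from the group means were correlated over the 6 libraries. The median Pearson r was 0.491 over the 100 adjacent rising pairs, with 75% of pairs above 0, and 0.276 over rising members on different contigs. All adjacent evm models at 4 CPM or more had a median of 0.204, and those 2 apart 0.122 (2545 pairs). For falling members the medians were 0.729 for adjacent pairs and 0.702 on different contigs. All pairs share the same libraries, and the values are given without a p. Differences between libraries moved with these values, and their part was not tested: rising members were highest in replicate 2 of ArR_5h in 122 of 195 cases and lowest in replicate 3 in 135, and falling members lowest in replicate 3 in 42 of 49. The lone rising models were highest in replicate 2 in 639 of 1003 cases, and the lone falling models lowest in replicate 3 in 349 of 455. Without replicate 3 of ArR_5h, the medians were 0.330 and 0.109 for rising and 0.034 and 0.280 for falling members, adjacent pairs first. After the median deviation of models of like level was taken out of each library, they were 0.267 and 0.037 for rising and 0.426 and 0.363 for falling members.

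**Figure D4:**
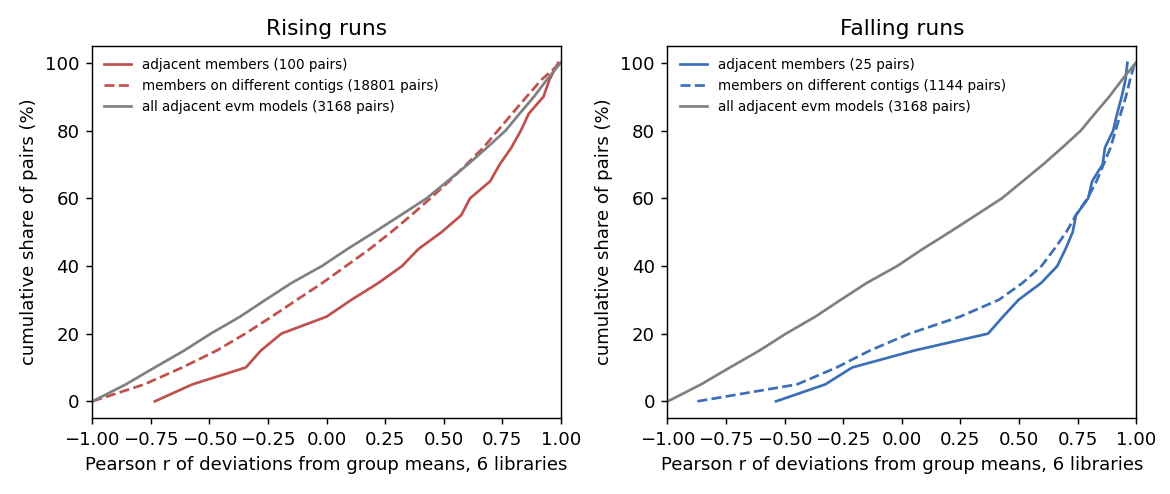
Cumulative share of pairs by the Pearson r of their deviations from the group means over 6 libraries, for adjacent members (solid colour), members on different contigs (dashed) and all adjacent evm models at 4 CPM or more (grey). Adjacent rising members have a median of 0.491 against 0.276 on different contigs, while for falling members the curves lie close (0.729 and 0.702).

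In some pairs the read counts kept almost one ratio in all 6 libraries. The counts of the kinase evm.TU.ctg918.4 were 1.25, 1.13 and 1.14 times those of evm.TU.ctg918.5 at 0 h and 1.24, 1.19 and 1.22 times at 5 h, a range of 1.10-fold, and the deviations had r = 0.99. The counts of evm.TU.ctg608.2 were 0.276, 0.284 and 0.284 of those of evm.TU.ctg608.3 at 0 h and 0.255, 0.258 and 0.273 at 5 h. For evm.TU.ctg29.13 and evm.TU.ctg29.14 the ratio ranged over 1.13-fold. Such steadiness was the exception: the range stayed within 1.5-fold in 24 of 100 rising and 6 of 25 falling pairs, and it exceeded 3-fold in 13 and 1. In the long run on contig 4711, the counts of evm.TU.ctg4711.1 were 2.94, 1.15 and 1.76 times those of evm.TU.ctg4711.2 at 0 h and 1.72, 1.67 and 1.84 times at 5 h, with r = -0.02.

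Members near the limits show how sharply the rule divides like models. Just inside the 2-fold limit were evm.TU.ctg456.9 (2.01), evm.TU.ctg68.4 (2.01) and evm.TU.ctg810.3 (2.02), and among neighbours of passing models just outside it were evm.TU.ctg396.30 (1.998), evm.TU.ctg453.10 (1.99) and evm.TU.ctg122.18 (1.99). Just inside the level limit were evm.TU.ctg132.16 (4.31 CPM), evm.TU.ctg241.8 (4.36 CPM) and evm.TU.ctg172.34 (4.41 CPM), and just outside it evm.TU.ctg240.6 (3.92 CPM), evm.TU.ctg356.5 (3.90 CPM) and evm.TU.ctg282.3 (3.90 CPM). Of the neighbours that missed 1 limit alone, 335 missed the ratio, 60 the level and 0 the separation of the libraries. With a ratio limit of 1.5 there were 680 members and with one of 3 there were 70, of which 4 were falling. Where models up to 2 numbers apart were joined, there were 379.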

How the data were processed

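Strand-unmarked 150 bp paired-end mRNA libraries were aligned by the authors to the Artemia franciscana genome, that of a relative, so divergence can lower the count of a model in all libraries alike. The submitters' processing notes name HISAT2 2.0.5 and featureCounts 1.5.0-p3. The deposited table holds raw counts and FPKM values, which the authors computed from count and model length, for 16591 models and 6 libraries, and 0 of its per-sample columns were left unused. Lengths were recovered by dividing count by FPKM and by a divisor of each library, fitted so that lengths came out whole. They were whole numbers within 0.02 bases for 100% of models with reads, which the fit aimed at. The divisors were 94.8% to 106.6% of the total counts, so the FPKM values were not scaled by these totals alone. Of all models, 287 with joined identifiers, 657 of 3 numbers and 3453 without an evm identifier were set aside, and 1747 had no read. CPM was count over the column sum.

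Counts were fitted with edgeR 4.0.16 (R 4.3.3; TMM factors, filterByExpr with a minimum count of 10 and total of 15, group as the only term) and p-values adjusted by Benjamini-Hochberg. Calls needed a log2 fold change over 1 in either direction besides an adjusted p up to 0.05. The fit and the rule were tested on simulated data. The members, lists and named runs were chosen with earlier results of these data known. Named were runs of 3 or more, the most abundant and most changed pairs, pairs most and least alike, contigs with both directions, and runs with annotated models. Members near each limit and runs holding a model named by the study were added. The most and least steady count ratios, contig 113, and the annotated examples were chosen after their values were seen. Floors of 3 counts cover counting error only. The replicates are described as biological, from one batch of cysts. One result is not reported here. Alternatives were other scalings, limits, calls (DESeq2 1.42.0) and adjacency, a replicate block and leaving out each library. Figures were drawn with matplotlib 3.10.9.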

Additional observations from a re-analysis of the deposited data

How the results depend on the processing

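The 244 members numbered 172 to 343 under most alternatives, with 4 exceptions: 441 with no level floor, 680 with a ratio limit of 1.5, 70 with one of 3, and 379 with model numbers up to 2 apart. Leaving out 1 library gave 243 to 276 members. TMM factors gave 244, of which 238 were shared, and RLE factors 247 (236 shared). In place of both the ratio and the separation of the libraries, edgeR calls gave 239 (228 shared) and DESeq2 calls 247. Models of 3 numbers, added after seeing the data, gave no run. Falling members numbered 77 at a floor of 2 CPM, 31 at one of 8 CPM, 127 with no floor, 201 at a ratio of 1.5 and 74 at up to 2 apart.

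Calls across all models numbered 2951 to 3251, and 2980 to 3194 without 1 library. Called members numbered 230 to 244. The replicate numbers were not shown to pair the samples: the deviations of same-numbered libraries correlated at 0.017, 0.033 and 0.096, and replicate 1 of ArD_0h correlated best with number 2 (0.052). With the replicate block there were 3006 calls, 234 called members and 237 members by calls (224 shared).

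Without 1 library, the median r of adjacent pairs was 0.330 to 0.651 for rising and 0.034 to 0.861 for falling members, lowest in both without replicate 3 of ArR_5h; the cause was not tested. TMM factors gave 0.380 and 0.595 for adjacent pairs, and 0.085 and 0.542 for members on different contigs, rising first. A pseudocount of 0.25 gave 0.469 and 0.744 for adjacent pairs, and 0.256 and 0.726 on different contigs. TMM factors set the size of replicate 2 of ArR_5h above its total count and that of replicate 3 below. How far the order of these libraries in CPM depends on the scaling was not tested. Low levels limit the ratios of members under 1 CPM at 0 h, where single libraries held few reads.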

Other observations

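Some neighbours changed in opposite directions, and of the 50 such pairs 7 included a member of a run. evm.TU.ctg57.23 had 21.5, 23.2 and 22.7 CPM in replicates 1, 2 and 3 of ArD_0h and 7.97, 10.1 and 3.58 CPM in those of ArR_5h, or 3.11-fold less. The models on both sides of it were higher at 5 h: evm.TU.ctg57.22 went from 50.9 to 119 CPM (2.35-fold) and evm.TU.ctg57.24 from 16.8 to 46.0 CPM (2.74-fold). evm.TU.ctg587.8 had 4.44, 4.93 and 3.55 CPM at 0 h and 19.2, 18.1 and 15.9 CPM at 5 h (4.12-fold more), beside evm.TU.ctg587.9, which had 121, 106 and 105 CPM and then 37.5, 42.7 and 29.6 CPM (3.04-fold less). evm.TU.ctg102.21 went from 4.49 to 13.9 CPM, and evm.TU.ctg102.20 from 32.4 to 8.19 CPM. These pairs were chosen after their values were seen, and none was tested. Of 657 models with an identifier of 3 numbers, 10 met the limits.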
